A study of Rattus norvegicus with 36 samples.

Results

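Pth, Gcm2 and Casr, 3 genes by which parathyroid tissue is recognised, were followed in thyroid samples from 36 rats. Each gene was found through the transcript that its array probe was designed for, and each had 1 probe printed as 2 spots, so that the genes account for 3 of the 30367 probes that are not controls. Parathyroid hormone, the product of Pth, raises blood calcium by acting on bone and kidney. Casr encodes the calcium-sensing receptor, through which the chief cells of the parathyroid glands measure blood calcium and hold back the hormone when it is high. Gcm2 encodes a transcription factor that parathyroid cells need to form and to survive. In the rat, the parathyroid glands lie at the surface of the thyroid gland or are embedded in it. The thyroid has hormone-producing follicular cells, and it also holds C cells, which secrete calcitonin and carry the calcium-sensing receptor as well.

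The rats were adult male Sprague Dawley animals, 4 in each of 9 groups. They received 131I, a beta-emitting iodine isotope that the thyroid takes up, as iodide in saline into a tail vein, at 4700, 1300, 760, 340, 260, 170, 88 or 9 kBq, and the controls (0 kBq) were mock-treated with saline. Thyroids were taken 24 h later, frozen, and their RNA was hybridised separately, with 1 Agilent 1-colour array per rat. Groups were injected from the lowest activity to the highest, with the controls last, so that activity and order cannot be told apart in the irradiated groups. The methods do not say whether the parathyroid glands were dissected away. In whole tissue, fewer cells of a type and less RNA per cell cannot be told apart. A level is the log2 intensity of a probe minus the 75th percentile of all probes on its array, and a gene was counted as detected where the scanner software called its probe well above background. Levels of different probes are not compared with each other.

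The arrays fell into separate sets by the genes of the thyroid itself. The mean level of 12 follicular genes, among them Tg (thyroglobulin) and Slc5a5 (the sodium-iodide symporter), lay between 1.25 and 2.70 on 18 arrays and between -5.03 and -0.75 on the other 18. Tg was detected on all 36 arrays, and Slc5a5 was detected on 18 of the 18 arrays of the higher set and on 8 of 18 of the lower set. The higher set held 3 control rats, 3 rats at 4700 kBq, 2 rats each at 88, 170, 260, 760 and 1300 kBq, and 1 rat each at 9 and 340 kBq. Results are given below over all arrays and over the 18 arrays of the higher set, a choice made after the values had been seen. Between 60.1% and 88.5% of probes were well above background on an array, and the arrays lay on 5 slides scanned on 2 days.

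The genes lie on separate chromosomes of the rat genome (RefSeq, build GRCr8). Pth (probe A_64_P117598) is at chr1:176942901-176946034, Gcm2 (A_64_P027083) at chr17:23858379-23867495 and Casr (A_64_P118532) at chr11:77738398-77813639. The RefSeq table of promoter windows, which run from 250 bases before to 50 bases after a start site, matched 2 of the 3 genes, Pth and Casr. The 250 bases before the start are shown for both genes with a window. Over all arrays the levels of Pth and Casr had a Pearson's r of 0.90. By r with Casr, Pth was at rank 397 of 12295 gene symbols, so that many other genes followed Casr more closely. Capitals mark the match to the TATAAA letters, and the bases read 5′ to 3′ on the strand of the gene. The window of Pth is chr1:176946035-176946284 on the minus strand, and that of Casr is chr11:77740364-77740613 on the plus strand, at a start site inside the annotated span of the gene.
Pth: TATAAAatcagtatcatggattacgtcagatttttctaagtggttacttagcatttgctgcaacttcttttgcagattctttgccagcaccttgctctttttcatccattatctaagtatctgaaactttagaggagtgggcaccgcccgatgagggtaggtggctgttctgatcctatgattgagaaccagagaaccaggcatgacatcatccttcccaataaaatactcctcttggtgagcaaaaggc
Casr: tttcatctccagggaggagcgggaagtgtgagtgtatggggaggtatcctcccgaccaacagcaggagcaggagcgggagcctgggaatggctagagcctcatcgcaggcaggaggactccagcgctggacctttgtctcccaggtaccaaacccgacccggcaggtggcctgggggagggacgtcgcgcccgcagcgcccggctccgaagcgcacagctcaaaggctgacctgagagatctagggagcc

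The promoter windows differed in base composition. Over its 300 bases the window of Pth had 42.7% G and C and that of Casr had 64.7%, beside a median of 51.7% over all 33469 windows. The windows were searched on both strands for the letters ATGCGGGT and ATGCGGGC of the GCM motif, GGTTCA of a vitamin D response half-site, and TATAAA. The only match to these letters was TATAAA in the window of Pth, at its first base, 250 bases before the start. Of all windows, 14.2% hold TATAAA, 11.7% GGTTCA, 0.403% ATGCGGGC and 0.254% ATGCGGGT.

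Pth was detected in some rats of every group and was missing from others in all groups except 4700 kBq. It was detected in 24 of 36 rats (66.7%), in 2 of 4 controls and 22 of 32 irradiated rats. By group, 2 of 4 rats had it at 9, 260 and 340 kBq, 3 of 4 at 88, 170, 760 and 1300 kBq, and 4 of 4 at 4700 kBq. An exact Freeman-Halton test over the 9 groups gave a two-sided p of 0.918 for Pth. Gcm2 was detected in 14 of 36 rats (38.9%), with 1 of 4 in the controls and at 9, 260, 340 and 760 kBq, 2 of 4 at 88, 170 and 1300 kBq, and 3 of 4 at 4700 kBq (exact p = 0.934). Casr was detected in 35 of 36 rats (97.2%), and the exception was rat 1 at 340 kBq (exact p = 1). In that rat 1 of the 2 Casr spots was well above background. With 1 rat lacking Casr and 4 rats in each group, the test gives the same p whichever group holds that rat. After adjustment over the 3 genes each p was 1.

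On the 18 arrays with the follicular genes in the higher set, Pth was detected in 17, Gcm2 in 14 and Casr in 18. On the other 18 arrays Pth was detected in 7 and Casr in 17. Gcm2 was detected there in 0 of 18 rats. By the rule of 3 over the number of rats, an approximate 95% limit, this allows a share of up to 16.7%. The limit is a description, since the sets were formed after the values had been seen. The 4 rats of the higher set without Gcm2 were rats 1 and 4 of the controls, rat 2 at 260 kBq and rat 4 at 760 kBq. Exact tests of detection against slide and scan day passed 0.05 for no gene (by slide p = 0.431 for Pth, 0.442 for Gcm2 and 0.556 for Casr, and by scan day p = 0.481, 0.0874 and 1). Each of the 5 slides held rats with Gcm2, from 1 of 6 rats on the slide to 5 of 8.

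**Figure D1:**
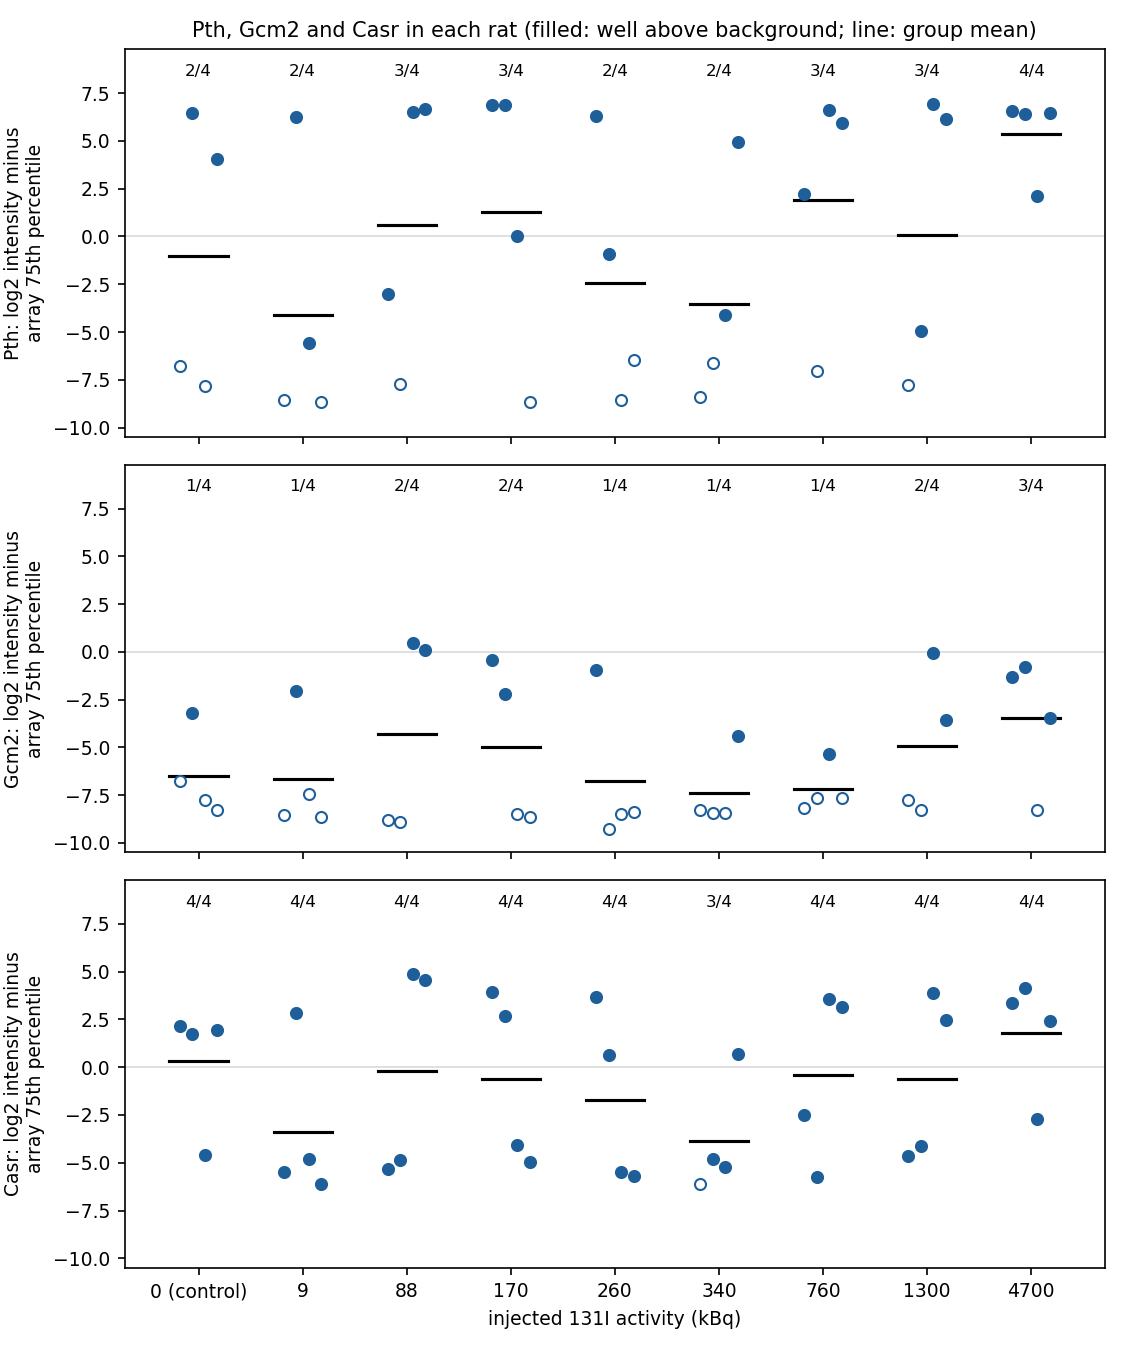
Level of Pth (top), Gcm2 (middle) and Casr (bottom) in each of 4 rats per group against injected activity, as log2 intensity minus the 75th percentile of the array. Filled points were well above background and open points were not, the line is the group mean, and the fraction above each group counts the rats with the gene, so that Pth is seen to spread from -8.68 to 6.95 with high and low rats side by side in 8 of the 9 groups.

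Pth had a wider spread between rats of a group than any other probe on the array. Among the controls, the levels in rats 1 to 4 were -6.80, 6.46, -7.81 and 4.03, with a mean of -1.03 ± 7.33 (SD, n = 4). Rats 2 and 4 were high, and rats 1 and 3 were low and not counted as detected. In rat 1 both Pth spots were called positive and significant and 1 of the 2 was well above background, so that by either of those looser calls 3 controls had Pth. At 9 kBq the levels were -8.56, 6.24, -5.55 and -8.64, and at 88 kBq they were -2.98, -7.73, 6.50 and 6.67. The high rats of both groups were near the highest control. At 170 kBq the levels were 6.89, 6.86, 0.03 and -8.68, and at 260 kBq they were 6.32, -0.93, -8.56 and -6.46. At 340 kBq they were -8.41, -6.62, -4.10 and 4.94. Each of these groups overlapped the controls in full or in part, and the 340 kBq group had no rat above 4.94. At 760 kBq the levels were 2.21, -7.05, 6.60 and 5.94, and at 1300 kBq they were -7.80, -4.94, 6.95 and 6.14. At 4700 kBq they were 6.55, 6.43, 2.12 and 6.45, with a mean of 5.38 ± 2.18. This was the only group with all 4 rats well above background, and all 4 lay inside or just above the range of the controls.

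Gcm2 was high in fewer rats, and never where Pth was not detected. In the rats where it was detected, the level ran from -5.34 to 0.46 with a median of -1.68, and in the other 22 it lay between -9.26 and -6.79. The controls had -6.79, -3.22, -7.77 and -8.26, of which rat 2 alone was detected. The detected rats were at -2.06 in the 9 kBq group, at 0.46 and 0.08 in the 88 kBq group, and at -0.44 and -2.23 in the 170 kBq group. Further up in activity they were at -0.95 (260 kBq), -4.38 (340 kBq), -5.34 (760 kBq), -0.05 and -3.58 (1300 kBq), and -1.31, -0.78 and -3.49 (4700 kBq). The high and low rats thus stood side by side within groups, as they did for Pth.

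Casr was detectable nearly throughout, at levels that were spread over more than 10 log2 units. The control rats had 2.18, 1.74, -4.62 and 1.94, with a mean of 0.31 ± 3.29 (SD, n = 4). Rat 3 was the low one, and it was also low in Pth. Levels at 9 kBq were -5.50, 2.83, -4.78 and -6.09, and at 340 kBq they were -6.10, -4.83, -5.24 and 0.68. In the 9 and 340 kBq groups alike, 3 rats were lower than the lowest control. Levels at 88 kBq were -5.32, -4.84, 4.86 and 4.56, those at 170 kBq were 3.95, 2.70, -4.08 and -4.94, and those at 260 kBq were 3.67, 0.62, -5.48 and -5.71. High and low rats in equal number were also seen at 760 kBq (-2.52, -5.75, 3.57 and 3.14) and at 1300 kBq (-4.66, -4.15, 3.89 and 2.45). At 4700 kBq the levels were 3.38, 4.14, -2.72 and 2.42, where rat 3 was low, as it was in Gcm2.

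The highest mean of each gene was that of the 4700 kBq group. This was not particular to the 3 genes. The follicular genes (mean 0.85) and the C cell genes (-0.48) were also highest at 4700 kBq. Genes of squamous epithelium (-4.77) and cartilage (-6.20) were lowest there, and the part of these tissues was not tested. For Pth the order was 4700, 760, 170, 88 and 1300 kBq, controls, 260, 340 and 9 kBq, from 5.38 down to -4.13. The gap between 4700 and 760 kBq (3.46) exceeded the smaller SD of those groups (2.18) and not the larger (6.29), and no other neighbours differed by more than their smaller SD. For Gcm2 the order was 4700, 88, 1300 and 170 kBq, controls, 9, 260, 760 and 340 kBq, from -3.46 to -7.39. For Casr it was 4700 kBq, controls, 88, 760, 170, 1300, 260, 9 and 340 kBq, from 1.81 to -3.87. No neighbours in these orders differed by more than their smaller SD, and the widest gaps were 0.679 and 0.483 of that SD. The lowest means of Casr were those of the 9 and 340 kBq groups, which each had 1 rat with high follicular genes, and the part of this in the result was not tested.

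No difference from the controls passed the limits for any of the genes, but with their spread the limits were practically out of reach. The SD between rats of a group was 6.58 for Pth, 4.24 for Casr and 3.47 for Gcm2. In data simulated for the 4700 kBq comparison, 0% of changes of 2 times a probe's SD and 74% of 4 times were called. For each of the genes, 4 times the SD is wider than the whole range of its levels over all arrays. The simulation drew normal values, whereas these levels split into high and low rats. The lack of calls therefore does not show that the groups were alike. In the limma fit over all probes, 0 of the 3 genes had an adjusted p under 0.01 with a fold change of at least 1.5 in any of the 8 irradiated groups, beside 0% of all probes in each comparison. At an unadjusted p under 0.05 the count of the 3 genes was also 0 in each group, beside 3.22% of all probes at 9 kBq, 3.35% at 88 kBq, 2.39% at 170 kBq, 1.11% at 260 kBq, 13.6% at 340 kBq, 1.64% at 760 kBq, 4.22% at 1300 kBq and 1.66% at 4700 kBq. None of the genes had all 4 rats of a group beyond all 4 controls, beside 1.74%, 1.87%, 1.26%, 1.05%, 4.37%, 1.63%, 1.28% and 1.27% of all probes in the same order of activity. Limma's F test over the 9 groups gave an adjusted p of 0.989 for each gene, and in it 0.0132% of all probes had an adjusted p under 0.01. At an unadjusted p under 0.05 in the same test, 2.67% of all probes and none of the 3 genes were counted.

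The intervals of the differences were wide. For Pth the log2 ratio to the controls was largest at 4700 kBq, 6.42 (SE 4.47, 95% confidence interval -2.72 to 15.6, limma adjusted p = 1.0), and lowest at 9 kBq, -3.10 (adjusted p = 0.999). The other Pth ratios were 1.65 at 88 kBq, 2.31 at 170 kBq, -1.38 at 260 kBq, -2.52 at 340 kBq, 2.96 at 760 kBq and 1.12 at 1300 kBq. Pth was detected in 2 of the 4 controls and in 2 of 4 rats at 9, 260 and 340 kBq. All Pth ratios thus rest in part on values not well above background. For Gcm2 (SE 2.36) the ratios were -0.16, 2.22, 1.54, -0.27, -0.88, -0.70, 1.58 and 3.05 from 9 to 4700 kBq, and the interval at 4700 kBq was -1.77 to 7.86. Only 1 of the 4 controls had Gcm2 detected, as did 1 of 4 rats at 9, 260, 340 and 760 kBq, so that these ratios and their directions rest largely on values not well above background. Casr (SE 2.88) had -3.70, -0.49, -0.90, -2.04, -4.18, -0.70, -0.93 and 1.5 in the same order. Its interval at 340 kBq was -10.1 to 1.71. In two-sided exact permutation tests of 4 against 4 rats, for which 0.0286 is the smallest p possible, the lowest p over the 24 tests was 0.0571 (Casr at 340 kBq, adjusted 0.971 over the 24). All ratios share the same 4 controls.

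**Figure D2:**
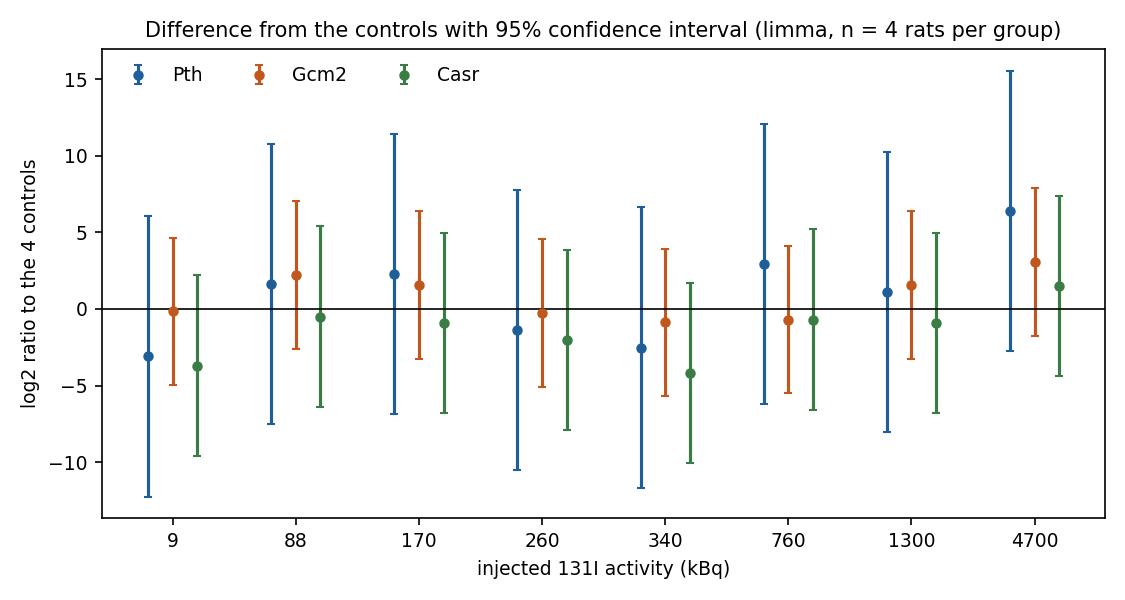
Log2 ratio of each irradiated group to the controls for Pth, Gcm2 and Casr against injected activity, with 95% confidence intervals from limma (n = 4 rats per group). All 24 intervals cross 0, and that of Pth at 4700 kBq runs from -2.72 to 15.6.

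With the 18 arrays of the higher set alone, no gene passed the limits either, and many directions turned. The Pth ratio was then 5.24 at 4700 kBq and 5.01 at 9 kBq, both against 3 controls of which rat 1 was low, and the Casr ratio at 340 kBq was -1.27 (adjusted p = 0.572). The 9 and 340 kBq groups have 1 rat each there, which the fit takes to vary like the other groups. Across the 9 groups the adjusted p of the F test on these arrays was 0.767 for Pth, 0.373 for Gcm2 and 0.258 for Casr.

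The spread within groups was among the widest on the array. The SD between rats of a group was 6.58 for Pth, rank 1 of 30367 probes, 4.24 for Casr (rank 72) and 3.47 for Gcm2 (rank 186), beside a median of 0.666. The next probes after Pth included Calca, the calcitonin gene, with an SD of 6.37. Group membership accounted for 19.5% of the sum of squares of Pth, 17.3% for Casr and 16.4% for Gcm2, and the median of all probes was 19.5%. The 2 spots of a probe, where both were called, differed by a median of 0.049 for Pth, 0.049 for Gcm2 and 0.082 for Casr, far less than the rats did.

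**Figure D3:**
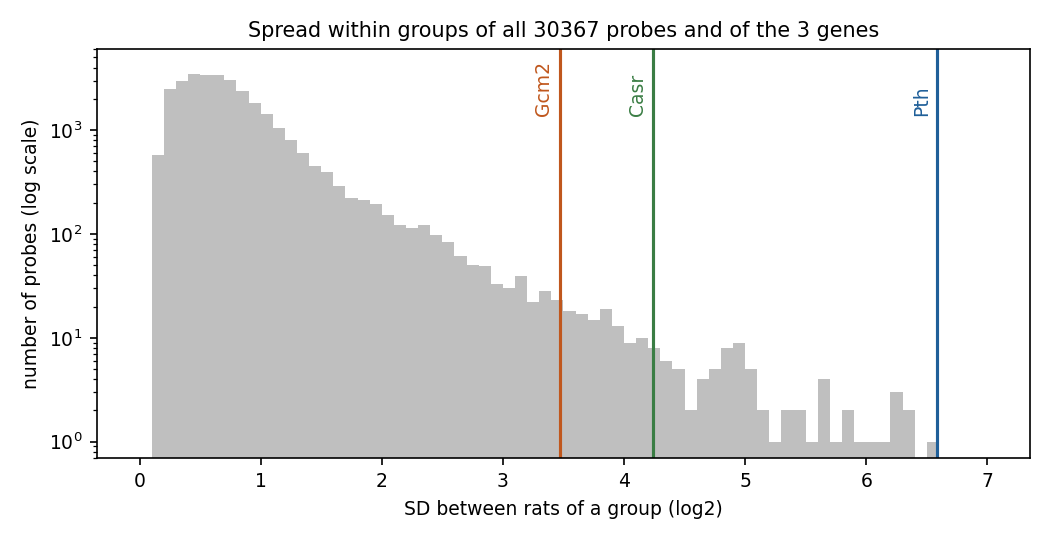
Number of probes (log scale) by SD between rats of a group, in log2 units, for all 30367 probes, with lines at the 3 genes. Pth at 6.58 is at the right end of the distribution, and the median probe is at 0.666.

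Gcm2 was seen only together with Pth. All 3 genes were detected in 14 rats, Pth and Casr without Gcm2 in 10, Casr alone in 11, and none of the 3 in 1 rat. Over the 36 rats Pth and Gcm2 were detected in the same rats more often than by independent placement (two-sided Fisher's exact test, p = 0.000708, adjusted 0.00212 over 3 pairs). For Pth with Casr (adjusted exact p = 0.5) and Gcm2 with Casr (adjusted exact p = 1) no such difference passed, and only 1 rat lacked Casr. On the 18 arrays of the higher set the adjusted exact p for Pth and Gcm2 was 0.667, where 1 rat lacked Pth, and by the software's other call (positive and significant) over all 36 it was 0.0819. Both genes moved with the sets of arrays.

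Rats with both Pth and Gcm2 had high Pth throughout. In these 14 rats Pth ran from 4.94 to 6.95 and Casr from 0.68 to 4.86, and Kl (klotho, the co-receptor for a phosphate hormone) was detected in 13. In the 10 rats with Pth alone of the pair, Pth ran from -5.55 to 5.94 and Casr from -5.32 to 3.14. In the 12 rats with neither, Casr ran from -6.10 to 2.18. Kl was detected in 0 rats of either of these sets.

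Levels of follicular and C cell genes were compared over the same sets of rats. Tg was between 6.77 and 7.48 in the 14 rats, between -2.43 and 7.36 in the 10 and between -4.51 and 6.96 in the 12. Calca was between 3.93 and 7.70, between -6.56 and 7.23 and between -8.51 and 6.90 in the same order. The mean of the 5 C cell genes ran from -3.07 to 2.07 (median 0.02), from -5.95 to 1.86 (median -4.63) and from -6.00 to -0.97 (median -5.30), so that the sets overlapped. The mean of 4 squamous epithelium genes had medians of -3.53, -2.89 and 4.36, and that of 6 cartilage genes had medians of -6.06, -4.95 and -1.97. Rat 1 of the controls had Casr at 2.18 with low Pth (-6.80), beside high follicular genes (mean 2.34) and a mean of 5 C cell genes of -0.97. Its Gcm2 level of -6.79 is the mean of discordant spots, with processed intensities of 146 (well above background) and 5.21 (not). Markers of the thymus, 10 genes with a mean between -6.75 and 2.11, were high on 3 arrays (rat 1 at 88 kBq, rat 2 at 9 kBq and rat 2 of the controls). The mean of 9 skeletal muscle genes ranged from -4.16 to 6.87, that of 5 adipose genes from -4.42 to 1.71, and that of 3 airway genes from -7.10 to -2.66. The part of any of these tissues in the levels of Pth, Gcm2 and Casr was not tested.

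**Figure D4:**
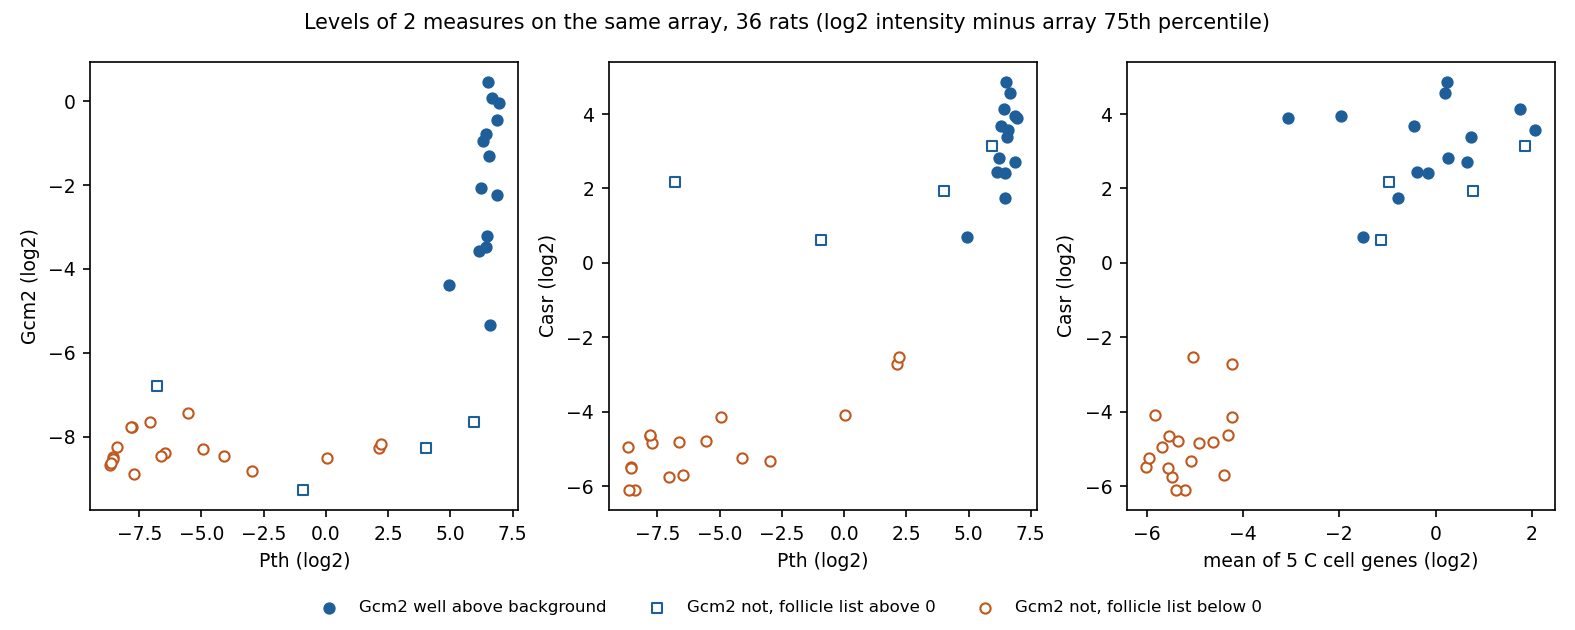
Levels on the same array in 36 rats: Gcm2 against Pth (left), Casr against Pth (middle) and Casr against the mean of 5 C cell genes (right), all in log2 units. Filled circles are the 14 rats with Gcm2 detected, open squares are the 4 rats without it whose follicular genes averaged above 0, and open orange circles are the 18 rats whose follicular genes averaged below 0. The filled points cluster at Pth of 4.94 to 6.95, and the orange points have Casr at -2.52 or lower.

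Because the rats fell into sets, relations between levels were computed within the 14 rats with Gcm2 and within the 18 rats with low follicular genes, 8 relations in all, chosen after the values had been seen. Adjusted p-values of two-sided permutation tests (100000 permutations) cover the 16 tests. In the 14 rats, Casr rose with Gcm2 (Pearson's r = 0.75, p = 0.00176, adjusted 0.00939, Spearman's rho = 0.84, p = 0.00031, adjusted 0.00248), and r was 0.95 without the 2 rats farthest from the median and 0.63 after centring on slides. Within the 2 slides with at least 4 of these rats, r was 0.39 and 0.97 for Casr with Gcm2, 0.07 and 0.69 for Casr with Pth, and 0.06 and 0.79 for Pth with Gcm2. For Casr and Pth r was 0.68 (p = 0.00938, adjusted 0.03) and rho 0.48 (p = 0.0877, adjusted 0.189). It fell to r = 0.29 without the 2 farthest rats, so that the uncentred r rests on them, and r was 0.77 after centring on slides. Pth against Gcm2 gave r = 0.49 (p = 0.0609, adjusted 0.163) and rho 0.47 (p = 0.0947, adjusted 0.189). Here r was 0.24 without the 2 farthest rats and 0.60 after centring on slides.

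In the 18 rats with low follicular genes, Pth and Casr were related with r = 0.81 (p = 0.00015, adjusted 0.0024) and rho = 0.60 (p = 0.00915, adjusted 0.03). Pth was detected in 7 of these 18 rats, so that the other 11 Pth values lie at or near background and carry little order. Without the 2 farthest rats r was 0.50, and within slides of at least 4 such rats it ran from 0.49 to 1.0. The relation of the C cell genes to Casr passed an adjusted p of 0.05 in neither set, with r = 0.21 (p = 0.461, adjusted 0.567; rho 0.19, p = 0.521) in the 14 rats and r = 0.36 (p = 0.144, adjusted 0.243; rho 0.33, p = 0.176) in the 18. For Pth with the C cell genes r was 0.07 (p = 0.791) and rho -0.03 (p = 0.916) in the 14, and r was 0.21 (p = 0.398) and rho 0.35 (p = 0.152) in the 18.

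Across all 36 arrays, the genes most like each member were picked by Pearson's r as a description, since the arrays share the sets above. Most like Pth were Chga (r = 0.95), which encodes chromogranin A, a protein of hormone granules, Cryba2 (0.93), Casr (0.90) and Bex4 (0.87). Most like Gcm2 were Pcyt1b (0.97), Kl (0.96), Gnas (0.94), which encodes the stimulatory G protein of hormone receptors, Acsl4 (0.93) and Cryba2 (0.93). Most like Casr were Chga (0.97), Scg5 (0.97), a secretory granule gene, Aass (0.97), Ica1 (0.97) and Slc26a7 (0.97). Its r was 0.90 with Pth (rank 397 of 12295 symbols) and 0.83 with Gcm2 (rank 967). With the 5 C cell genes it was 0.95 (Calca), 0.86 (Ret), 0.81 (Calcb), 0.69 (Sst) and 0.67 (Scg2). With the follicular genes Slc5a5 and Tg it was 0.94 and 0.80. Over all arrays Casr thus followed some C cell and follicular genes as closely as it followed Pth.

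Other genes of parathyroid formation, calcium sensing, mineral feedback, secretion and growth control were taken from a list of 35, of which 32 had a probe (Hoxa3, Pax1 and Eya1 had none). In none of the 8 groups did any of the 32 pass the limits in either direction, beside 0% of all probes. At an unadjusted limma p under 0.05 the highest count was 3 of the 32, at 88 kBq, beside 3.35% of all probes, and at 260 and 760 kBq it was 0. Gata3, Vdr and Rxra are described below because they had such a p, picked from 32 genes in 8 groups. The median log2 ratio of the 32 lay between 0.01 (9 kBq) and 0.33 (4700 kBq).

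Among the transcription factors, Gata3, which acts in parathyroid development, was 3.86 above the controls at 88 kBq (limma adjusted p = 1.0). There 3 rats lay above all controls, a count for which no share over all probes was computed. It was detected on 18 arrays, and its r with Gcm2 over the 36 arrays was 0.83.

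In mineral feedback, Vdr, the vitamin D receptor, had log2 ratios of 1.77 at 88 kBq (limma adjusted p = 1.0) and 1.71 at 170 kBq (adjusted p = 0.995), where 4 of 4 rats lay above the controls, beside 1.26% of all probes with their 4 rats beyond the controls at that activity. Rxra, its partner, had a log2 ratio of 1.0 at 340 kBq with 4 of 4 rats above the controls (adjusted p = 0.334), beside 4.37% of all probes. Cyp24a1, which degrades active vitamin D, was detected on 0 arrays. Among hormones and receptors, Pthlh, the PTH-related peptide, was detected on 36 arrays and had r = -0.65 with Pth. Pth2r, a receptor for related peptides, was detected on 0 arrays. In secretion, Chga was detected on 21 arrays and Chgb, its relative, on 36. Men1, Cdc73 and Cdkn1b, which restrain parathyroid growth, had SDs between rats of 0.517, 0.268 and 0.335, beside a median of 0.666 over all probes.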

How the data were processed

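RNA from 36 rat thyroids was measured on 1-colour arrays. Per the file headers, the deposited intensity (processed signal) had been background-subtracted and detrended by Feature Extraction 10.7.3.1, without normalization between arrays. The authors also deposited a matrix of intensities, quantile normalized between arrays, processed with Partek per the labels, and used here as an alternative. Outlier spots were left out, each array's 75th percentile was subtracted on the log2 scale, and the spots of a probe averaged. A call needed a majority of the kept spots well above background. Limma 3.58.1 (R 4.3.3) fitted 1 mean per group to all 30367 probes, with Benjamini-Hochberg adjustment within each comparison. Exact and permutation tests used scipy 1.17.1. In data simulated for the 4700 kBq comparison (30268 probes), 0% of changes of 2 times a probe's SD, 74% of 4 times and 100% of 6 times were called. The number of arrays limits the precision. The members and lists were chosen with earlier results of these data known. The named genes are the 3 members, the list genes and the 5 symbols with the highest r to each member among probes detected on at least 6 arrays. A few results of these genes are not reported here. Alternatives are named in the closing section, and the 18-array set was added after seeing the data. Each rat is a separate animal. The highest r between 2 arrays was 0.991, and none was treated as a duplicate.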

Additional observations from a re-analysis of the deposited data

Results flagged for a closer look

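Within groups of 4 rats, 5 of 27 sets of levels had 1 rat far from the other 3 (by Dixon's gap test). For independent sets of normal values, chance gives about 5%. That share does not hold here, since the sets come from the same rats and the levels split into high and low. Rat 3 at 4700 kBq was low in Pth (2.12). Rat 1 at 260 kBq was high in Gcm2 (-0.95), and so was rat 4 at 340 kBq (-4.38). Rat 3 of the controls was low in Casr (-4.62), and rat 2 at 9 kBq was high in Casr (2.83). The low rats belonged to the set with low follicular genes and the high rats to the set with high ones, and the part of this in the levels was not tested.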

How the results depend on the processing

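Under every alternative run, 0 of the 3 genes and 0 of the 32 listed genes passed the limits in any group. The lowest adjusted p of a log2 ratio over the alternatives was 0.031 (Casr at 9 kBq, array weights). Of 448 alternative ratios, 385 kept their direction and 63 turned, and 7 of the 24 ratios never turned. Apart from the fits that left out 1 rat, 30 of 256 turned. These counts include fits that could not turn a ratio. The replicate block, the filter on dim probes and the fits of only the groups compared keep the same difference of group means. With the slide as a block the ratio turned for Pth at 260 kBq (2.11), Gcm2 at 9 (0.39), 260 (1.29) and 760 kBq (0.17), and Casr at 88 (1.71) and 760 kBq (0.39). With the scan day as a block it turned for Pth at 260 kBq (0.86), Gcm2 at 9 (0.33), 260 (0.72), 340 (0.11) and 760 kBq (0.29), and Casr at 88 (1.17) and 760 kBq (0.41). Normexp correction turned Gcm2 at 9 (0.19) and 260 kBq (0.41), and array weights turned Casr at 88 (1.01), 170 (0.23) and 1300 kBq (0.15). A fit of the 18 arrays with high follicular genes alone turned Pth at 9 (5.01), 260 (1.46) and 340 kBq (3.71), Gcm2 at 9 (4.02), 260 (0.98) and 340 kBq (1.71), and Casr at 9 (0.88), 88 (2.76), 170 (1.37), 260 (0.19), 760 (1.4) and 1300 kBq (1.22). On them Casr was detected on 18 arrays, and the pair Pth and Gcm2 had an adjusted exact p of 0.667, and of 0.0819 over 36 arrays by the positive and significant call. The cause was not tested. Leaving out each rat in turn gave Pth ratios of -0.61 to 4.43 (88 kBq), -4.29 to 1.12 (260 kBq) and -1.17 to 3.75 (1300 kBq), Gcm2 ratios of -1.70 to 0.94 (9 kBq), -2.21 to 0.83 (260 kBq), -1.88 to 0.22 (340 kBq), -1.31 to 0.40 (760 kBq) and -0.040 to 2.71 (1300 kBq), and Casr ratios of -2.18 to 1.22 (88 kBq), -2.55 to 0.55 (170 kBq), -2.34 to 1.09 (760 kBq), -2.57 to 0.42 (1300 kBq) and -0.15 to 3.0 (4700 kBq). The remaining ratios kept their direction, with Pth at -6.55 to -0.60 (9 kBq), 0.046 to 5.63 (170 kBq), -5.35 to -0.020 (340 kBq), 0.69 to 5.95 (760 kBq) and 4.15 to 8.91 (4700 kBq), Gcm2 at 0.64 to 3.75 (88 kBq), 0.038 to 2.78 (170 kBq) and 2.15 to 4.65 (4700 kBq), and Casr at -5.77 to -2.80 (9 kBq), -3.84 to -0.71 (260 kBq) and -5.83 to -3.44 (340 kBq). The pair Pth and Gcm2 kept its call without any 1 rat (adjusted exact p 0.00184 to 0.00269).

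The rat numbers are only names: deviations of same-numbered rats correlated with r from -0.686 to 0.685. With the replicate block the Pth ratio at 4700 kBq was 6.42, a value fixed by the design, since each group holds each rat number once. The block changed no call, with 0 of 3 genes called. Gcm2 had no value in the fit filtered on dim probes, and the fits of only the groups compared gave no F test. Wide rat-to-rat spread, with 4 rats a group, limits every ratio.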
